A study of Mus musculus with 3 samples.

Results

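Cells of mouse blastocysts that were high in mitotic genes were compared with cells of the same libraries that were low in them. The score of a cell was the summed level, in counts per 1000000 counts of that cell (CPM), of Ccnb1, Cdc20, Plk1, Aurka, Bub1, Cenpe, Cenpf, Top2a, Kif11 and Ube2c. The top and the bottom 25% of the cells of each library by this score formed the high and the low cells. There were 49 high and 49 low cells among 200 retained cells, with 15, 16 and 18 cells per side in replicates 1, 2 and 3. Retained cells, 61, 64 and 75 of the 96 barcodes per library, had at least 2000 genes with a count and at least 500 CPM of Actb, an actin gene that every cell uses. Of 288 barcodes, 63 had fewer genes and 25 others fell under the Actb minimum.

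All 3 libraries belong to 1 group, single cells of embryos at embryonic day 3.5 of the Klf2-H2bmcherry mouse line, in which embryos positive for mCherry were used. Per the labels' protocols, embryos were collected at embryonic day 2.5, cultured in KSOMaa with HEPES, either without motion or with shaking, stripped of the zona with Proteinase E and dissociated in KSOMaa without calcium and magnesium before single cells were picked by mouth pipette. The labels give no embryo, culture condition, cell cycle stage or reporter level per cell, and do not say that the libraries came from separate animals or cultures. With the library as a block, the p-values therefore measure only how the difference between high and low cells varied from library to library. That variation may be technical.

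In dividing cells the transcripts of mitotic regulators accumulate through G2 and peak around mitosis, and the proteins are then destroyed by the anaphase-promoting complex. Cyclin B with the kinase CDK1 drives entry into mitosis, PLK1 and AURKA build the spindle, BUB1 and CENPE act at kinetochores, and CDC20 and UBE2C work in the destruction step. Genes of this kind are known to be controlled through promoters that carry CCAAT boxes, bound by NF-Y, and elements of the CHR type (TTTGAA or TTTAAA), bound by the DREAM and MuvB complexes.

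The 120 bases that precede the RefSeq start site of 4 genes of the score and of 4 genes that were higher in high cells are shown because the CCAAT motif recurs in them, together with TTTGAA or TTTAAA in all but Hmmr. Sequences and coordinates are RefSeq's for GRCm38.p6, each written 5′ to 3′ on the strand of the gene. Capitals mark CCAAT and either TTTGAA or its variant TTTAAA. A motif on the opposite strand reads ATTGG in place of the first and TTCAAA in place of the second. TTTAAA reads the same on both strands.
Ccnb1, chr13:100786487-100786606, minus strand: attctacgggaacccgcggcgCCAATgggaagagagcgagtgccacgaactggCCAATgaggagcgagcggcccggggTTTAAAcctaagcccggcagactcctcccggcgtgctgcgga
Cdc20, chr4:118437344-118437463, minus strand: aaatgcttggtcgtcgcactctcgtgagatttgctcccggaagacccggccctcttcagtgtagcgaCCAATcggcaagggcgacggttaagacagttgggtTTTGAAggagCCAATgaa
Plk1, chr7:122159315-122159434, plus strand: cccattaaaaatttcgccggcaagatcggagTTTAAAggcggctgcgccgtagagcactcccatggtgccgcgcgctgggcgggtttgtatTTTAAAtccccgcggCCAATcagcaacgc
Ube2c, chr2:164769809-164769928, plus strand: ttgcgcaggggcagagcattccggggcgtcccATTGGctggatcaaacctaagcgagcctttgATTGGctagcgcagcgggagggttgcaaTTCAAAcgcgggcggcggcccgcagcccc
Bub3, chr7:131560250-131560369, plus strand: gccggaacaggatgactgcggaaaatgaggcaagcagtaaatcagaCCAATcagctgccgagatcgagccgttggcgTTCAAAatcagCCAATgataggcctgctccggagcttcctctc
Kpna2, chr11:106999526-106999645, minus strand: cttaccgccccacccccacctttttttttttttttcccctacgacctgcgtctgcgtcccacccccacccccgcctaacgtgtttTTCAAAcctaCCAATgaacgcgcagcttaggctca
Cdk1, chr10:69352913-69353032, minus strand: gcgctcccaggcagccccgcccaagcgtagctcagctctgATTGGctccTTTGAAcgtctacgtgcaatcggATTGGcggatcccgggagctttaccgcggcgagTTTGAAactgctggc
Hmmr, chr11:40733438-40733557, minus strand: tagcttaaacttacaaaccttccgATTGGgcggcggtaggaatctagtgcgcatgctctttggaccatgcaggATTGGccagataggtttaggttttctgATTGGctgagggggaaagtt

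All 10 score genes held CCAAT on either strand in this window upstream of at least 1 listed start, and 6 of the 10 also held TTTGAA or TTTAAA. Among the 10 genes outside the score that were called higher in high cells and had an entry in the table, 8 held CCAAT and 4 (Bub3, Kpna2, Cdk1 and Prc1) held both kinds of motif. Of the 3 genes called lower, 2 held CCAAT and 1 held both. The same window of all 8950 tested genes with an entry held CCAAT in 28.86%, TTTGAA or TTTAAA in 8.358% and both in 2.19%. For 74 genes of the 4 mitotic lists described below, these shares were 63.51%, 32.43% and 22.97%. For 29 genes of DNA replication and entry into S phase they were 58.62%, 6.897% and 0%. CCAAT was thus not particular to mitotic genes. A match is a run of letters and not a shown binding site.

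The median score rose from 982, 1519 and 1045 CPM in the low cells of replicates 1, 2 and 3 to 2953, 5010 and 3958 CPM in the high cells, ratios of 3.01, 3.30 and 3.79. These scores chose the cells and carry no test. The highest low cell and the next cell above it had 1054 and 1073 CPM in replicate 1, 1851 and 1919 CPM in replicate 2 and 1405 and 1418 CPM in replicate 3. The lowest high cell and the next cell below it had 2302 and 2289 CPM, 4340 and 4101 CPM, and 3100 and 3055 CPM in the same order. Scores rose without a step, so the sides are ranges of a score and not cell types: 25 cells lay within 10% of the lower limit and 20 within 10% of the upper one. No retained cell had a score of 0, and the low cells of replicate 2 reached higher scores than the low cells of the other replicates.

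**Figure D1:**
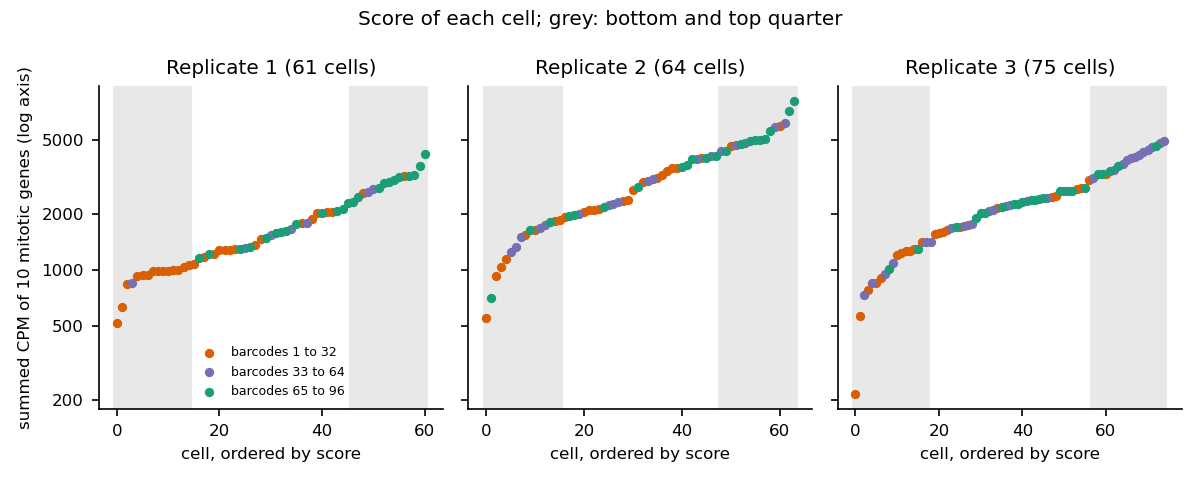
Score of every retained cell (summed CPM of the 10 mitotic genes, log axis) against its rank within replicates 1, 2 and 3, with colours for the 3 sets of 32 barcode numbers and grey bands for the low and the high cells. Scores rise without a gap at the edges of the bands, and cells of barcodes 1 to 32 fill much of the lower band.

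Each score gene moved with the sum that it is part of. Plk1, the polo-like kinase of spindle assembly, was at 16.2, 27.8 and 13.8 CPM in the summed low cells of replicates 1 to 3 and at 167, 479 and 163 CPM in the high cells. Ube2c, the ubiquitin-conjugating enzyme of the anaphase-promoting complex, was at 84.5, 43.2 and 185 CPM against 747, 251 and 1151 CPM. Ccnb1, which encodes cyclin B1, was at 246, 562 and 365 CPM against 684, 1781 and 1017 CPM. For these genes every library's high cells lay above the low cells of the same library. A summed level does not by itself tell more expressing cells from more RNA per cell. Plk1 had a count in 18 low and 44 high cells, Ube2c in 40 and 47, and Ccnb1 in 45 and 48. The median Ccnb1 level per cell was 244, 435 and 262 CPM in low and 704, 1772 and 1020 CPM in high cells. Plk1 thus differed in the number of cells with a count and also in level, since its summed ratios of 10.3, 17.2 and 11.8 were larger than the rise in that number. Ccnb1 differed mainly in the level per cell.

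Aurka, the kinase of centrosome maturation, was at 128, 214 and 170 CPM in low cells and 269, 955 and 531 CPM in high cells, and Cdc20 was at 72.4, 96.3 and 58.8 CPM against 255, 131 and 176 CPM. For Cenpf, a kinetochore protein of G2 and mitosis, the ratios were 3.63, 7.20 and 3.41. Top2a, the topoisomerase that untangles chromosomes, had ratios of 2.75, 3.93 and 2.48, and Cenpe, a kinetochore motor, of 2.33, 2.15 and 2.63. Bub1 and Kif11 had lower ratios than Cenpe in each library. Bub1, a kinase of the spindle checkpoint, differed 1.57-, 1.61- and 1.49-fold, and Kif11, the kinesin that pushes spindle poles apart, 2.06-, 1.42- and 1.94-fold. Ccnb1 made up 21.6%, 35% and 26.4% of the summed score of the high cells, so the sum leans on it and, in replicates 1 and 3, on Ube2c with 23.5% and 29.8%. A single cell could also be high mainly through another gene. The high cell with barcode 67 of replicate 2, at 23361 counts, had 3938 CPM of Cdc20 in a score of 4923 CPM, with 0 of Plk1 and Aurka. To see whether a member followed the rest, cells were ranked again by the other 9 genes. Of the 10 genes, 9 were then higher in the high cells of all 3 libraries. Cdc20, the activator of the anaphase-promoting complex, was the exception, with 83.2 and 68.2 CPM in the low cells of replicates 1 and 3 against 255 and 143 CPM in the high cells, but 220 against 99.0 CPM in replicate 2.

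Outside the score, 14 of 11078 tested genes (0.126%) differed between high and low cells at an adjusted p below 0.05 in the quasi-likelihood test of edgeR, blocked by library. High cells had more of 11 (0.0993%) and less of 3 (0.0271%). The higher genes were Hmmr, Cdca2, Prc1, Kpna2, Tubb4b, Alppl2, Cks2, Bub3, Tuba1c, Cdk1 and Arl6ip1, 7 of which belonged to lists of mitotic genes (Cdca2, Kpna2, Alppl2 and Arl6ip1 did not), and the lower genes were Upp1, Spp1 and Hspa1a. At an unadjusted p below 0.05, 507 genes were higher (4.58%) and 378 lower (3.41%), in all 7.99%. Sides and tests used the same cells, and the p-values leave out the uncertainty of choosing the sides.

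The called genes included 4 of the spindle. Prc1, the protein that bundles the microtubules of the central spindle, was at 58.7, 129 and 88.5 CPM in the low cells of replicates 1, 2 and 3 and at 329, 438 and 212 CPM in the high cells. Its log2 fold change was 1.89 ± 0.28 (SE, n = 3 libraries, adjusted p = 0.0377). The lowest high value exceeded the highest low value, which 2.15% of all tested genes did. Hmmr, a microtubule-associated protein of spindle poles, stood at 61.5, 74.9 and 54.3 CPM in low and 240, 266 and 232 CPM in high cells, with a log2 fold change of 2.02 ± 0.24 (adjusted p = 0.0194). Its 6 values also fell into groups that did not overlap.

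Among tubulins, the subunits of microtubules, Tubb4b rose from 155, 119 and 191 CPM to 439, 345 and 552 CPM (log2 fold change 1.58 ± 0.20, adjusted p = 0.0240). Tuba1c rose from 83.3, 168 and 184 CPM to 246, 403 and 462 CPM (1.44 ± 0.21, adjusted p = 0.0377). Tubulin genes are near-identical in their coding parts, so reads of related copies may have been divided between them. Both tubulins were higher in the high cells of every library, with no overlap between the groups.

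Kpna2, an importin that carries proteins into the nucleus and holds spindle factors such as TPX2, was at 55.9, 168 and 142 CPM in low cells and at 162, 688 and 364 CPM in high cells (log2 fold change 1.70 ± 0.24, adjusted p = 0.0362). Bub3, which brings the checkpoint kinases to kinetochores, was at 108, 131 and 180 CPM against 269, 428 and 450 CPM (1.51 ± 0.22, adjusted p = 0.0377). Cdca2, which targets a phosphatase to chromosomes as mitosis ends, was at 31.7, 62.6 and 38.4 CPM against 106, 286 and 120 CPM (1.92 ± 0.29, adjusted p = 0.0443). The groups of Kpna2 overlapped across libraries, since replicate 1 was low on both sides, whereas those of Bub3 and Cdca2 did not.

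Of the kinases and cyclins left for testing, Cdk1, the kinase partner of cyclin B, rose from 65.9, 162 and 232 CPM to 181, 400 and 564 CPM (log2 fold change 1.41 ± 0.21, adjusted p = 0.0377). Cks2, a small subunit that binds this kinase, went from 116, 113 and 351 CPM to 426, 226 and 973 CPM (1.51 ± 0.21, adjusted p = 0.0362). Both were higher in each library, while the libraries differed enough that the groups overlapped. Arl6ip1, a membrane protein of the endoplasmic reticulum, was at 375, 864 and 425 CPM against 960, 1911 and 809 CPM (1.20 ± 0.16, adjusted p = 0.0320).

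Cyclin genes other than Ccnb1 did not all share this pattern. Ccnb2, the second B-type cyclin, was at 277, 129 and 236 CPM in low cells and 248, 132 and 234 CPM in high cells, a log2 difference of 0.02 ± 0.22 (adjusted p = 0.994). Ccna2, the cyclin of S phase and G2, was at 106, 73.0 and 50.8 CPM against 162, 35.4 and 108 CPM (0.30 ± 0.39, adjusted p = 0.909). Neither difference exceeded its standard error. With sides taken within sets of 32 barcode numbers both genes were higher in 3 of 3 libraries. The log2 differences were then 0.24 ± 0.19 for Ccnb2 and 0.73 ± 0.26 for Ccna2, each with an adjusted p of 0.998. With barcodes 33 to 96 only, they were 0.63 and -0.17. Mki67, which coats mitotic chromosomes and is used to mark cycling cells, was at 36.0, 32 and 27.7 CPM against 113, 90.9 and 40.1 CPM, higher in 3 of 3 libraries but not past the threshold (1.29 ± 0.37, adjusted p = 0.396).

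**Figure D2:**
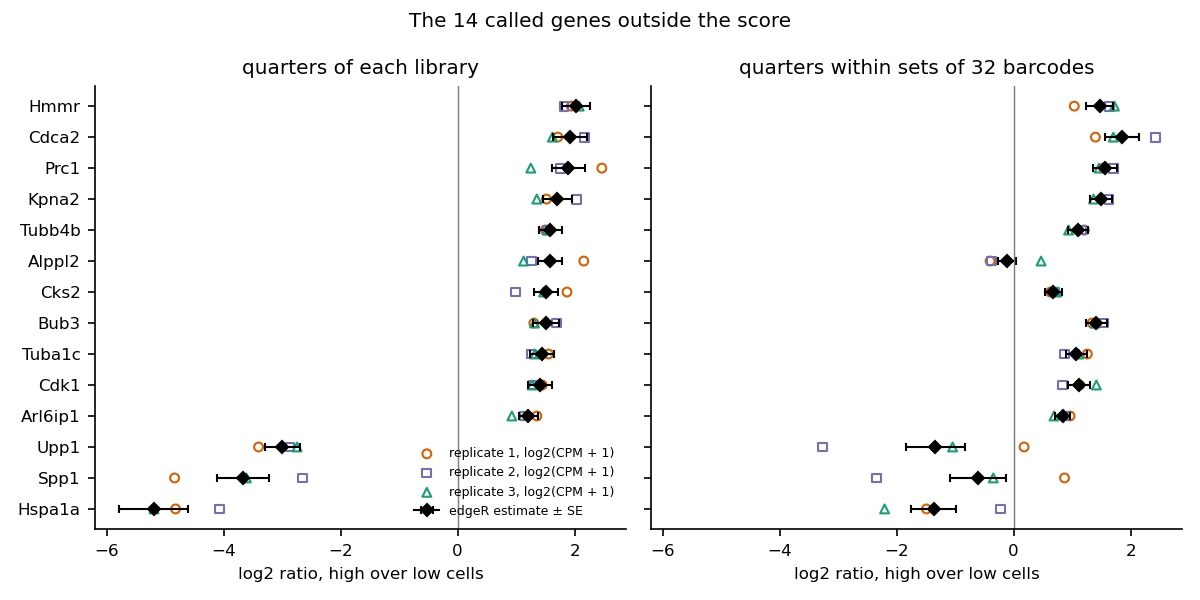
Log2 ratio of high over low cells for the 14 called genes, with open symbols for the ratio of CPM plus 1 in replicates 1 to 3 and diamonds with bars for the edgeR estimate ± SE, for sides taken over each library (left) and for sides taken within sets of 32 barcode numbers (right). On the right, the genes called higher other than Alppl2 lie between 0.68 (Cks2) and 1.86 (Cdca2), Alppl2 lies at -0.11, and the library values of Upp1 and Spp1 fall on both sides of 0.

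How firmly the calls stood depended on the libraries. Without replicate 1 or replicate 3, 7 genes were called in each case (0.0615% and 0.0648%), and among the 14 these were Alppl2, Hspa1a, Spp1 and Upp1 without replicate 1 and Alppl2, Hspa1a and Upp1 without replicate 3. Without replicate 2, in whose low cells 4.31% of counts were of ribosomal protein genes against 20.5% and 13.4% in replicates 1 and 3, 160 genes were called (1.39%), all 14 among them. DESeq2 called 189 genes (1.71%), again with all 14. In each of these fits all 14 genes kept their direction. A fit without a replicate rests on fewer libraries, so its p-values, here and below, are a less certain measure of the spread between libraries.

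Beyond single genes, 4 lists of mitotic genes that the score did not use leaned towards the high cells, and the spindle list did so most. Of their 98 genes 93 were tested, of which 7 were called higher and 0 lower. At an unadjusted p below 0.05, 37 of the 93 were higher and 1 was lower, beside 4.58% and 3.41% of all tested genes. The median log2 fold change of the 93 genes was 0.51, beside 0.02 for all tested genes, and 80 were above 0, beside 51.0% of all tested genes.

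In the list of spindle, motor and cytokinesis genes, 4 of 31 were called higher (Hmmr, Tubb4b, Tuba1c and Prc1) and 18 had an unadjusted p below 0.05, all of them higher. The summed level of the list was 2498, 4263 and 3083 CPM in the low cells of replicates 1 to 3, 2744, 5484 and 3602 CPM in the middle cells and 3932, 8269 and 4952 CPM in the high cells. Its median log2 fold change was 0.97. The order from low over middle to high held in every library. Genes of this list named here after their values were seen include Tpx2, which activates AURKA on the spindle, at 64, 203 and 47.3 CPM against 206, 415 and 157 CPM (log2 fold change 1.54 ± 0.24, adjusted p = 0.0542). Nusap1, which binds spindle microtubules near chromosomes, was at 108, 39.7 and 26.2 CPM against 161, 271 and 167 CPM (2.10 ± 0.44, adjusted p = 0.206). Neither passed the threshold, although each was higher in 3 of 3 libraries.

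Among kinases, cyclins and regulators of the anaphase-promoting complex, 2 of 24 were called higher (Cdk1 and Cks2) and 0 lower. At an unadjusted p below 0.05, 7 were higher and 1 lower, beside 4.58% and 3.41% of all tested genes. The median log2 fold change was 0.36. Ccnf, the F-box cyclin, and Aurkb, the kinase of the chromosomal passenger complex, had log2 fold changes of 1.54 ± 0.25 (adjusted p = 0.0648) and 1.43 ± 0.31 (adjusted p = 0.206). The 1 gene with a lower level at an unadjusted p below 0.05 was Wee1, the kinase that holds CDK1 inactive, at 29.2, 65.6 and 41.3 CPM in low cells and 7.84, 40.9 and 16.1 CPM in high cells (-1.24 ± 0.47, adjusted p = 0.541). These 3 genes were picked after their values were seen.

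For kinetochore and checkpoint genes, 1 of 18 tested was called higher (Bub3) and 0 lower, with 5 higher at an unadjusted p below 0.05 and a median log2 fold change of 0.50. Their summed level was 1998, 1736 and 2257 CPM in low cells and 2771, 2679 and 3188 CPM in high cells. Condensin, cohesin and other chromosome proteins had 0 of 20 called, 7 higher at an unadjusted p below 0.05 and a median of 0.26. Of all tested genes, 0.0993% were called higher, and 4.58% were higher at an unadjusted p below 0.05. The 4 lists thus differed in size of shift, which was not tested between them.

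Transcripts of the replication machinery lay on the other side of 0. Of 36 genes of DNA replication and entry into S phase, which are expressed ahead of and during S phase, 0 were called in either direction. At an unadjusted p below 0.05, 0 were higher and 8 lower, beside 4.58% and 3.41% of all tested genes. A negative log2 fold change was found in 27 of the 36 (median -0.33), beside 5426 of all 11078 tested genes. In 17 of the 36 the high cells were lower in all 3 libraries, beside 16.9% of all tested genes. The summed level of the list was 5202, 12807 and 6875 CPM in low cells and 3741, 11545 and 6516 CPM in high cells. DESeq2 called 1 of the 36 genes lower and 0 higher.

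Single genes of the replication list show the size of these differences. Mcm6, a subunit of the replicative helicase that was picked after its values were seen, was at 369, 591 and 109 CPM in low cells and 155, 108 and 92.7 CPM in high cells (log2 fold change -1.25 ± 0.35, adjusted p = 0.385). Mcm5, of the same helicase, was at 239, 958 and 311 CPM against 158, 958 and 216 CPM (-0.31 ± 0.21, adjusted p = 0.773). Pcna, the sliding clamp of DNA polymerase, was at 72.7, 84.6 and 187 CPM against 33.3, 93.6 and 199 CPM (-0.22 ± 0.33, adjusted p = 0.927). None of the 3 passed the adjusted threshold. Mcm6 was lower in 3 of 3 libraries, while Pcna was lower in 1 of 3.

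The transcription factors and complexes that control both programmes were called in 0 of 21 cases, with a median log2 fold change of -0.31. At an unadjusted p below 0.05, 0 were higher and 2 lower, beside 4.58% and 3.41% of all tested genes. Foxm1, the activator of late cell cycle genes, was at 1.55, 1.0 and 2.07 CPM in low cells and 4.87, 4.27 and 5.89 CPM in high cells (1.79 ± 1.20, adjusted p = 0.773). Mybl2, which encodes B-MYB, was at 32, 64.5 and 47.2 CPM against 40.9, 39.4 and 27.4 CPM (-0.33 ± 0.41, adjusted p = 0.903). Foxm1 was higher in 3 of 3 libraries at these low counts, and Mybl2 in 1 of 3. Cdkn1a, the inhibitor p21 of cyclin-dependent kinases, was at 14, 54.1 and 118 CPM against 120, 56.6 and 385 CPM (1.64 ± 0.47, adjusted p = 0.385). Without replicate 2 it passed the threshold (adjusted p = 2.96e-05), in a fit that rests on fewer libraries. With sides taken within sets of 32 barcode numbers its difference turned to -0.08 (adjusted p = 0.998), and with barcodes 33 to 96 only to -1.09.

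**Figure D3:**
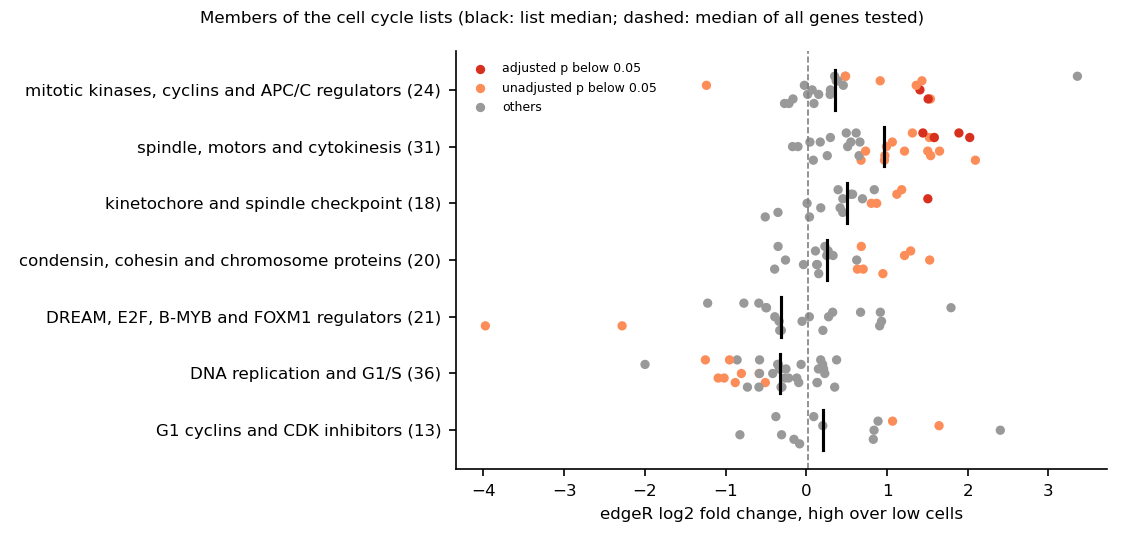
Log2 fold change of high over low cells from edgeR for each tested gene of 7 cell cycle lists, with the number tested in parentheses, black bars for list medians and a dashed line for the median of all tested genes. Spindle genes centre at 0.97 and include 4 of the called genes (red), while replication genes centre at -0.33 with none called.

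High and low cells were unevenly spread over the cell barcodes. Each library used the same 96 barcodes, of which 35 were retained in all 3 libraries, and the labels do not say what a barcode's number means. Of 79 retained cells with barcodes 1 to 32, 33 were low and 5 high. Of 53 cells with barcodes 33 to 64, 11 were low and 19 high, and of 68 cells with barcodes 65 to 96, 5 were low and 25 high. The median score rose from the first to the last set in replicate 1 (1119, 1652 and 2209 CPM) and replicate 2 (2128, 2650 and 4010 CPM), and in replicate 3 both later sets lay above the first (1568, 2402 and 2370 CPM). High against low cells therefore partly compares barcode sets, and both cannot be told apart when sides are taken over whole libraries.

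Sides were therefore also taken within each set of 32 barcodes of each library. Of 10945 genes 4 were then called (0.0365%), 3 of them higher (0.0274%) and 1 lower (0.00914%). The 3 higher genes were Kpna2, Bub3 and Prc1, all among the 14. Prc1 was at 87.9, 111 and 78.0 CPM in low and 257, 366 and 216 CPM in high cells (log2 fold change 1.57 ± 0.20), Kpna2 at 50.6, 176 and 142 CPM against 144, 546 and 367 CPM (1.5 ± 0.19) and Bub3 at 106, 132 and 166 CPM against 269, 384 and 436 CPM (1.42 ± 0.18), each with an adjusted p of 0.0286. The groups of Prc1 and of Bub3 did not overlap, and how many of all genes tested within the sets did so was not counted. Without replicate 1 or 2 the number of called genes was 1 or 2, without replicate 3 it was 0, and the adjusted p of these 3 genes rose to between 0.0821 and 0.2304. DESeq2 called 32 genes within the sets (0.292%), the 3 among them.

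The gene called lower within the sets, Zfp382, which encodes a zinc finger protein and was named after its values were seen, rested largely on replicate 1. It was at 114, 2.68 and 4.30 CPM in the low cells of replicates 1 to 3 and at 1.42, 0.140 and 0 CPM in the high cells. Its log2 fold change was -6.20 ± 0.86 (adjusted p = 0.0378, and 0.882, 0.00684 and 0.176 without replicates 1, 2 and 3). With sides over whole libraries its level was higher in the high cells of replicate 3, and its adjusted p was 0.712. On those sides Zfp382 had a count in only 5 low and 6 high cells.

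Of the 11 genes called higher over whole libraries, 10 kept their sign within the sets, all but Alppl2. Hmmr had a log2 fold change of 1.47 ± 0.24 (adjusted p = 0.0747), Cdca2 of 1.86 ± 0.29 (0.0660), Cdk1 of 1.12 ± 0.19 (0.0930), Tubb4b of 1.1 ± 0.17 (0.0660), Tuba1c of 1.07 ± 0.18 (0.0930) and Arl6ip1 of 0.83 ± 0.13 (0.0660). The value of Cks2 fell from 1.51 to 0.68 ± 0.15 (0.622). Of the 31 spindle genes, 21 were higher and 0 lower at an unadjusted p below 0.05, beside 2.46% and 2.27% of all genes tested within the sets (4.72% in either direction), and the list's median was 0.87. Of these 31 genes 28 were above 0, beside 51.7% of all genes. Of the 36 replication genes 0 were higher and 8 lower, with a median of -0.24. The mitotic and replication lists thus lay on the same sides of 0 as before.

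The other 4 called genes had smaller differences within the sets. Alppl2, a placental-type alkaline phosphatase, went from 226, 1121 and 465 CPM in low to 1011, 2686 and 1016 CPM in high cells of whole libraries (log2 fold change 1.57 ± 0.20, adjusted p = 0.0240). Within the sets it was at 792, 1951 and 624 CPM against 599, 1504 and 863 CPM (-0.11 ± 0.16, adjusted p = 0.998). The direction thus held in 3 of 3 libraries before and in 1 of 3 within the sets. Over all retained cells Alppl2 was at 380, 163 and 1319 CPM in the 3 barcode sets of replicate 1, 810, 1159 and 4185 CPM in replicate 2 and 396, 550 and 1562 CPM in replicate 3, highest in the last set each time.

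Upp1, the uridine phosphorylase, fell from 312, 114 and 216 CPM in low cells to 28.6, 14.7 and 31.4 CPM in high cells of whole libraries (-2.99 ± 0.29, adjusted p = 0.0106). Spp1, the secreted matrix protein osteopontin, fell from 264, 240 and 251 CPM to 8.26, 37.5 and 19.6 CPM (-3.67 ± 0.44, adjusted p = 0.0194), and its adjusted p without replicate 3 was 0.0940. For both genes all low values lay above all high values, and how many of all tested genes did so was not counted. Lower in all 3 libraries were 16.9% of all tested genes. Within the sets the log2 fold changes were -1.34 ± 0.51 for Upp1 and -0.60 ± 0.48 for Spp1, both with an adjusted p of 0.998. Spp1 was at 278, 276 and 300 CPM over all cells of barcodes 1 to 32 in replicates 1 to 3 and at 4.24, 2.31 and 10.7 CPM over those of barcodes 65 to 96. Upp1 showed the same order, with 323, 119 and 236 CPM in the first set and 28.4, 9.97 and 11.5 CPM in the last.

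Hspa1a, an inducible heat shock chaperone, was at 189, 408 and 43.3 CPM in low cells and 5.72, 23.3 and 0.215 CPM in high cells (-5.19 ± 0.59, adjusted p = 0.0194). Within the sets it was at 56.5, 310 and 40.8 CPM against 19.5, 264 and 8.05 CPM (-1.36 ± 0.38, adjusted p = 0.998). Its near-identical copy Hspa1b, picked after its values were seen, was at 40.4, 23.1 and 6.43 CPM against 3.6, 0.259 and 0.774 CPM (-4.03 ± 0.88, adjusted p = 0.207), and reads may have been divided between both copies. Of 13 heat shock and chaperone genes, 1 was called lower and 0 higher, with 0 higher and 5 lower at an unadjusted p below 0.05, beside 4.58% and 3.41% of all tested genes. Within the sets 0 of the 13 were called, and 1 was higher and 2 were lower at an unadjusted p below 0.05.

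**Figure D4:**
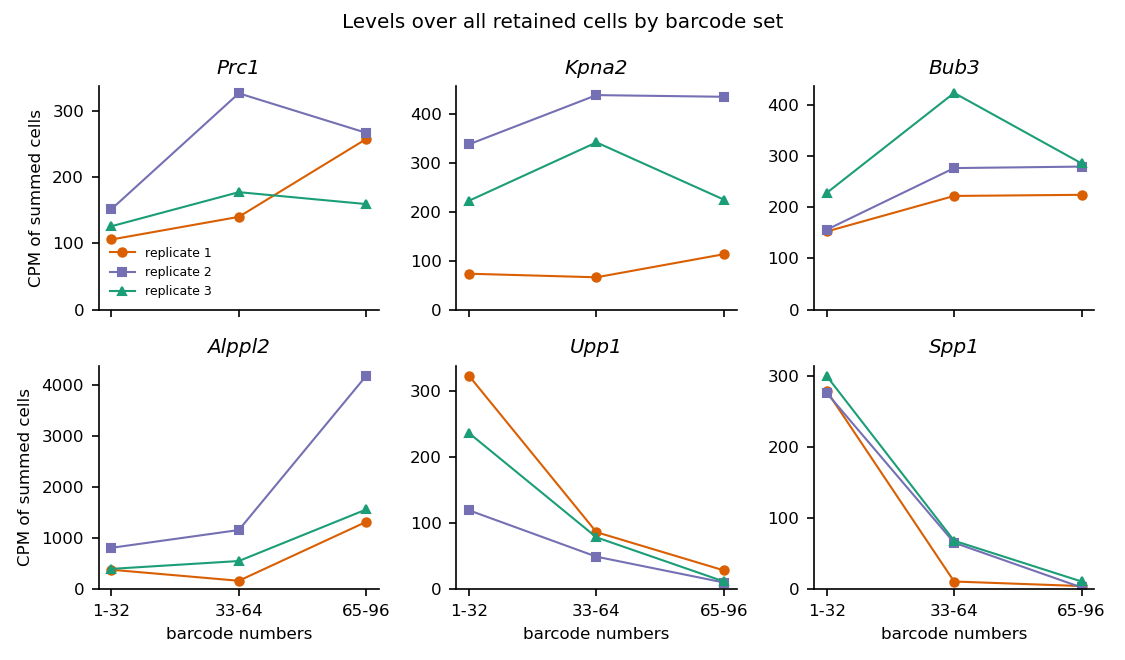
Level in CPM over all retained cells by set of barcode numbers, with a line per replicate, for 3 genes called within the sets (Prc1, Kpna2, Bub3) and 3 that were not (Alppl2, Upp1, Spp1). Spp1 falls from 276 to 300 CPM in barcodes 1 to 32 to at most 10.7 CPM in barcodes 65 to 96, and Alppl2 is highest in the last set of each replicate.

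Depth and keratin level of the sides were compared because either could move with the score. Median counts per cell were 240514, 404589 and 488353 in the low cells of replicates 1 to 3 and 295205, 398008 and 1065662 in the high cells. The shallowest cells had 7098, 9984 and 14165 counts on the low side and 31775, 16829 and 50131 on the high side. High cells were deeper in 2 of 3 libraries, by a mean log2 ratio of 0.47 ± 0.59 (SD, n = 3; two-sided exact permutation p = 0.5). With 3 libraries the smallest p that this test can give is 0.25. Across cells the rank correlation of score and total was 0.18, 0.11 and 0.35 over 61, 64 and 75 cells, which share a library and, through CPM, the total itself. With each cell thinned to 50000 counts, 7 of 6831 genes were called, 6 of them among the 14 (Alppl2, Arl6ip1, Hmmr, Hspa1a, Spp1 and Upp1).

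Krt8 and Krt18 encode the keratins of the trophectoderm (TE), the outer epithelium of the blastocyst. Their summed level was 4252, 1743 and 3734 CPM in the low cells and 1657, 1386 and 2447 CPM in the high cells, lower in 3 of 3 libraries by a mean log2 ratio of -0.77 ± 0.53 (SD, n = 3; two-sided exact permutation p = 0.25, the smallest possible). The median over cells did not follow, with 1688, 659 and 3254 CPM in low and 608, 1454 and 1954 CPM in high cells, lower in 2 of 3 libraries (mean log2 ratio -0.36 ± 1.35, p = 0.75 in the same exact test). Within barcode sets the summed level was 2804, 2094 and 1942 CPM in low and 1768, 3200 and 2551 CPM in high cells, lower in replicate 1 and higher in replicates 2 and 3 (mean log2 ratio 0.11). Neither Krt8 (-0.70 ± 0.20, adjusted p = 0.387) nor Krt18 (-0.71 ± 0.21, adjusted p = 0.415) passed the threshold. Without replicate 2 both did (adjusted p = 4.2e-05 and 3.57e-05), in a fit that rests on fewer libraries. Within barcode sets both turned, to 0.04 ± 0.19 and 0.17 ± 0.21.

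The wider list of TE markers had 0 of 18 genes called and a median log2 fold change of -0.33, and 0.40 within barcode sets. Its summed level per cell had medians of 2120, 2173 and 7562 CPM in low and 921, 3394 and 5171 CPM in high cells. For 15 tested markers of the inner cell mass and epiblast, 1 was called lower, Upp1, beside 0.0271% of all tested genes. The medians per cell were 1513, 2073 and 1057 CPM against 1352, 1790 and 1325 CPM. Nanog, the epiblast factor, was at 27.3, 210 and 43.1 CPM against 61.6, 326 and 88.7 CPM (1.01 ± 0.26, adjusted p = 0.334) in whole libraries and at -0.04 ± 0.26 on the log2 scale within the sets. Pou5f1, which encodes OCT4, was at 93.5, 35 and 129 CPM against 94.3, 31.9 and 100 CPM (-0.10 ± 0.29, adjusted p = 0.969). Klf2, the gene that carries the reporter in this line, was at 144, 419 and 101 CPM against 369, 323 and 279 CPM (0.89 ± 0.32, adjusted p = 0.523), higher in 2 of 3 libraries. Without replicate 2, the library where it was lower, it passed the threshold (adjusted p = 0.000292), in a fit that rests on fewer libraries. Within the sets Klf2 was at 151, 181 and 186 CPM against 357, 231 and 277 CPM (0.71 ± 0.21, adjusted p = 0.998), higher in 3 of 3 libraries.

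Of 4 lists of markers of cells from outside the embryo, those of cumulus and granulosa cells and of fibroblasts were near 0 on both sides, and that of oviduct epithelium was not. The 9 cumulus and granulosa genes summed to between 1.03 and 4.52 CPM and the 7 fibroblast genes to between 0 and 0.259 CPM in the summed cells of a side, with 6 or 7 genes of each list at 0. The 9 blood genes summed to between 6.98 and 29.2 CPM. The 8 genes listed for oviduct epithelium reached 289 to 1400 CPM with 3 to 6 of them at 0, and this list's part in the results was not tested. In replicate 1 the list summed to 1231 CPM in low and 1400 CPM in high cells. Epcam, 1 of its genes, alone was at 1161 CPM over all retained cells of that replicate. The sum there was thus mostly Epcam and not a level shared by the list. The share of counts from ribosomal protein genes was 20.5%, 4.31% and 13.4% in low cells and 19.6%, 4.05% and 12.4% in high cells, close on both sides of a library and far apart between libraries.

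**Figure D5:**
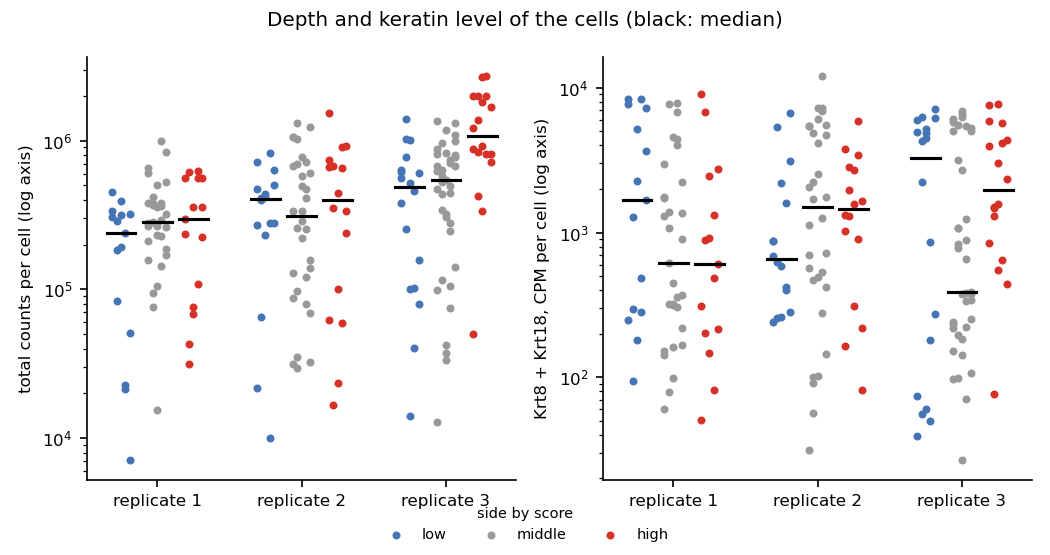
Total counts (left) and summed Krt8 and Krt18 level in CPM (right) of each retained cell, on log axes, for low, middle and high cells of replicates 1 to 3, with black bars for medians. The sides overlap widely in both measures, and the median total of the high cells of replicate 3, 1065662 counts, is the highest of the 9 medians.

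The cells of each library were finally divided at their median of Krt8 plus Krt18 and high and low cells were taken within each group, to ask whether the difference between high and low cells depended on the keratin level. The test of that dependence, an interaction in edgeR, called 0 of 10785 genes, with 635 at an unadjusted p below 0.05 (5.89%). DESeq2 called 15. Spindle genes had a median log2 fold change of 0.79 in the keratin-low cells and 0.97 in the keratin-high cells. Among cells low in keratin 2 genes were called (0.0185%), Alppl2 (2.33, adjusted p = 0.0444) and Hprt, a purine salvage enzyme outside the rule for named genes (1.06, adjusted p = 0.0444). Among cells high in keratin 2 others were called (0.0185%), Arl6ip1 (1.57, adjusted p = 0.0481) and Cdca2 (2.60, adjusted p = 0.0481). Prc1 had log2 fold changes of 1.90 and 1.91 in keratin-low and keratin-high cells, and Kpna2 1.87 and 1.73. These groups held 7, 8 and 9 cells per side in replicates 1 to 3, and a gene called in 1 group only was not shown to differ between them.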

How the data were processed

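Transcripts were counted in single cells of 3 libraries, and the deposited values were raw counts per gene and barcode for 23154 gene symbols. CASAVA 1.8, HISAT2, HTSeq and the build mm10 appear in the submitters' processing notes. Per the labels' protocols, primers carried molecular identifiers, but the sources used here do not give the annotation, the strand setting, or whether the counts are molecules or reads. Without these, copies of a gene family and overlapping genes may share reads. Library totals were 30573711, 27610866 and 54444536 counts, of which retained cells held 18313511, 27518501 and 53184271.

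Counts of the high and the low cells were summed per library, so that the library and not the cell was the replicate. Both sides came out of the same library, which is where the pairing comes from. Genes were retained with filterByExpr, scaled by TMM and tested with edgeR 4.0.16 (quasi-likelihood test, library as a block, R 4.3.3). Benjamini-Hochberg adjustment ran over all tested genes, with a threshold of 0.05. The 10 score genes were left out of tests. Single values were compared by a two-sided exact permutation (sign) test over libraries. Errors after ± are standard errors of this fit unless given as SD. The test was checked on simulated data, where it missed part of the changed genes and more of those with smaller changes, so a gene that was not called may still differ. Alternatives were DESeq2 1.42.0, RLE factors, no filter, no block, thinning to 50000 counts, equal weight per cell, a rank score, other shares of cells, other cell filters, sides balanced over total or keratin, and sides within sets of 32 barcode numbers. No doublet caller was run on hand-picked cells, and an alternative left out cells above 2.5 times the median total.

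Named genes were the score genes, called genes averaging at least 5 in log2 CPM and with one sign in all libraries (up to 12 per direction), up to 4 called genes per list and a set of named regulators; others are said to be picked after their values were seen. The score, the members and the 28 gene lists were chosen with earlier results of these data known. Of the listed symbols, Knl1, Sgo1, Sgo2a, Diaph1 and Diaph3 matched no row. Promoter sequences came from a RefSeq table of GRCm38.p6, which matched 8950 of 11078 tested genes by symbol.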

Additional observations from a re-analysis of the deposited data

Results flagged for a closer look

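A group of cells outside the comparison had mostly low scores, and differed from the retained cells in other genes as well. In replicate 1, 22 cells, all with barcodes 33 to 64, passed the gene minimum but not the Actb minimum. Their median score was 648.2 CPM, with a range of 210.3 to 3562 CPM, and 14 of the 22 lay under the upper limit of the low cells of that library. They were not shallow, with medians of 334300 counts and 8195 genes, but their median Actb level was 199.3 CPM, and ribosomal protein genes took 3.716% of their counts against 20.08% in the retained cells. Ccnb1 was at 168.7 CPM in these cells and 432 CPM in the retained cells of replicate 1, and Mki67 at 9.826 against 59.57 CPM. Kif11, also of the score, went the other way with 184.2 against 70.93 CPM, as did Nanog with 146.6 against 54.5 CPM and Foxm1 with 5.404 against 3.44 CPM. Other genes, picked after their values were seen, also differed in both directions. Gapdh was at 1.883 against 62.09 CPM, Eef1a1 at 527.8 against 2917 CPM and Mmp24 at 274.2 against 0.1638 CPM. The lower score was thus 1 of many differences. With these cells and those of replicate 3 under the Actb minimum included, 0 genes were called. What set the 22 cells apart was not tested.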

How the results depend on the processing

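The comparison of 14 called genes depended on the design. Without the library block, that is without the pairing of sides, 0 genes were called (197 at an unadjusted p below 0.05). DESeq2 called 189 and the fit without a count filter 70. With thinned cells 7 were called, with equal weight per cell 2, with each of 2 wider shares of cells per side 9, within barcode sets 4, with a minimum of 4000 genes 4, without the Actb minimum 0 (336 at an unadjusted p below 0.05), without possible doublets 1 and with sides balanced over cell totals 2. For barcodes 33 to 96 only, chosen after seeing the data, 0 were called (435). Leaving out a replicate gave 7 to 160. RLE factors, the rank score and sides balanced over keratin gave 12 to 14. All 14 genes kept their direction wherever tested, except Alppl2 within barcode sets (-0.1144); Hspa1a was not tested in barcodes 33 to 96.

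Members of the mitotic lists called higher numbered 7, and 0 without the block, 23 with DESeq2, 17 without a filter, 0 to 19 without a replicate, 1 with thinning, 0 with equal weight, 2 within barcode sets, 2 at 4000 genes, 0 without the Actb minimum, 0 without doublets, 1 with balanced totals and 0 in barcodes 33 to 96. Within barcode sets the 4 calls became 0 to 2 without a replicate and 32 with DESeq2. The interaction with keratin called 15 genes with DESeq2 and 6 without a filter.

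Genes that were not called changed sign in some settings. Ccnb2 was at -0.036 without the block, -0.0678 to 0.1068 without a replicate, -0.2403 with thinning, -0.1078 with equal weight, -0.2867 with the rank score, -0.0091 with balanced keratin and -0.0544 without doublets. Ccna2 was at -0.1403 to 0.8715 without a replicate, -0.2335 with balanced totals and -0.1685 in barcodes 33 to 96. Mybl2 was at 0.1646 with the rank score. Pcna was at -0.4779 to 0.2098 without a replicate, 0.316 without the Actb minimum and 0.0468 in barcodes 33 to 96. Without the Actb minimum, Krt8 was at 0.3334, Krt18 at 0.2872, Actb at 0.5424, Pou5f1 at 0.0352 and Nanog at -0.0211. Within barcode sets, Krt8 was at 0.0379, Krt18 at 0.1745, Nanog at -0.043 and Cdkn1a at -0.0766, and in barcodes 33 to 96 Krt8 was at 0.096, Krt18 at 0.4719 and Cdkn1a at -1.092. Actb was at 0.023 with equal weight and 0.0254 without doublets, and Pou5f1 at -0.1609 to 0.0127 without a replicate and 0.0277 without doublets.

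The summed keratin ratio turned to 0.1133 within barcode sets, 0.399 without the Actb minimum and 0.2927 in barcodes 33 to 96. The ratio of cell medians turned to 0.0828 with the widest sides, 1.277, 0.7943 and 1.209 in those 3 settings and ran from -1.105 to 0.2028 without a replicate. Thinned totals are equal by construction and give no ratio. The cause of these changes was not tested. With 3 libraries, single values cannot reach a p below 0.25, and at this depth low-count genes such as Foxm1 had standard errors above 1 on the log2 scale.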
